A study of Mus musculus with 4 samples.

Results

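A set of 77 predicted genes with symbols of the form Gm plus digits was abundant in both KLF2 tumours and had no UMI (unique molecular identifier, one tag per captured RNA molecule) in vector replicate 2. The members were chosen by these values. Each had at least 500 UMIs, summed over all barcodes, in each of KLF2 replicates 1 and 2, and 0 UMIs or no entry in vector replicate 2. Gm42418 and Gm26917 were left out by the rule. The members are 77 of 6888 Gm symbols and of 28889 gene symbols listed in the 3 libraries with a count matrix used here. Since the rule used the contrast between these libraries, that contrast is described below and supports nothing.

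Liver tumours of male C57BL/6 mice were profiled by droplet single-cell RNA sequencing to ask how KLF2 overexpression relates to cell composition and tumour cell states. All mice received c-MYC and AKT on pT3-EF1α plasmids with the SB100X transposase by hydrodynamic tail vein injection at 8 weeks of age, and tumours were taken 10 weeks later, at 18 weeks. The vector group (2 mice) also received the empty pT3 plasmid and the KLF2 group (2 mice) pT3-EF1α-KLF2, with expression driven by the EF1α promoter in whichever liver cells took up the plasmids. Of vector replicate 1 only the list of genes and the barcodes were used, so levels were compared between 1 vector library and 2 KLF2 libraries, and no difference between the groups was tested.

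The libraries differed in ways that touch every value below. The total was 45594544 UMIs over 12852 barcodes in vector replicate 2, against 95374838 over 6282 and 125458473 over 11240 in KLF2 replicates 1 and 2. The median mitochondrial share per barcode was 16.3% in vector replicate 2, against 0.227% and 0.35% in the KLF2 libraries. Any pair of libraries shared between 427 and 1289 barcode names. The part of depth and of mitochondrial RNA in the members' values was not tested. Klf2 was at 383, 337 and 405 CPM (UMIs per 1000000 of the library) in vector replicate 2 and KLF2 replicates 1 and 2. In the tumour/parenchymal class defined below it was at 139, 328 and 380 CPM. That class held no cluster in common between vector replicate 2 and the KLF2 libraries, so these values set unlike cells side by side. The file does not separate plasmid from native transcripts. The hepatocyte gene Alb was at 122 CPM in vector replicate 2 and at 4.17 and 8.97 CPM in the KLF2 libraries, and the biliary keratin Krt19 at 1.05, 99.8 and 168 CPM.

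Most genes end where their RNA is cleaved and given a poly(A) tail, but some transcripts run past that point and are spliced into the next gene on the same strand. Annotation projects give such a readthrough transcript a gene entry of its own, which in the mouse often carries a Gm placeholder symbol. Its exons are then largely the exons of the neighbouring genes, so an RNA fragment from their common part fits more than one gene entry, while a fragment across the joint between the genes can be particular to the readthrough transcript.

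In the GENCODE M21 annotation of GRCm38, 62 of the 77 members were readthrough-only models, meaning that every annotated transcript carries the readthrough tag. Of these, 54 were classed as protein-coding, 5 as processed transcripts, 2 as lincRNA and 1 as antisense. They shared at least 50 exonic bases with 2 single genes of the same strand in 54 cases, with 3 in 3 cases, with 1 in 3 cases and with none in 1 case. Gm42416, in a protocadherin gene cluster, did so with 24. A median of 99.5% of a readthrough-only member's exonic bases also belonged to the single genes. The share was at least 90% in 42 of the 62 and 0 in the lowest, so some members also have exonic stretches of their own apart from a joint. Their genomic spans ran from 3.98 kb to 4435 kb with a median of 41.4 kb.

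The joints between the single genes are where a readthrough transcript departs from both, and those of members described below are shown for that reason. Each is written 5′ to 3′, with 15 bases of the upstream gene's exon in lower case and 15 bases of the downstream gene's exon in capitals, as read from the GENCODE M21 transcripts. Coordinates are of GRCm38 and give the last base of the upstream exon and the first base of the downstream exon.
Gm20388 (Usp10 to Galnt2, chromosome 8, plus strand, 119910939 and 124295358): ctccacaacccacagGGTGACTGGAATGAC
Gm42674 (S100a3 to S100a4, chromosome 3, plus strand, 90602312 and 90604997): tctctactgccacgaGTCTCAACGGTTACC
Gm20521 (Bcl2l2 to Pabpn1, chromosome 14, plus strand, 54884813 and 54894848): agcagtgggggctggGAGCTAGAAGCGATC
Gm20498 (Synj2bp to Cox16, chromosome 12, minus strand, 81504544 and 81481002): agagtacagcacaggTTGCTGGTTGTTGGA
Gm20427 (Slc39a7 to H2-Ke6, chromosome 17, minus strand, 34028853 and 34027840): cagtcactgttggagGTGCGGGTAGCGGCA
Gm45837 (Arap1 to Pde2a, chromosome 7, plus strand, 101411069 and 101451402): gctgaccccctttccGCGGGGCCAGCAGGT
Gm49339 (Lilr4b to Lilrb4a, chromosome 10, plus strand, 51480753 and 51491197): tgctgctataccttgGTCTTATTCTGGAAC

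With Gm42416 left out, such a joint could be written for 48 members. In 46 of them the 30 bases occurred in the transcripts of no other gene, and the exceptions were Gm49339, whose stretch also occurred in Lilrb4a, and Gm49450, a joint of the tubulin genes Tuba1a and Tuba1b found in 8 genes. The matrices give UMIs per gene and not per base, so how many UMIs of a member lay on its joint was not measured.

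Of the other 15 members, 10 had an ordinary gene model. Gm32884, Gm35188, Gm35769, Gm38551 and Gm48099 were lincRNA, Gm16136 and Gm46563 antisense, Gm14164 and Gm15286 processed transcripts and Gm10964 protein-coding. Gm49804, Gm49909, Gm50364, Gm50387 and Gm50388 were not matched to GENCODE M21.

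Absence from vector replicate 2 was common among Gm symbols and rare among other symbols past the same threshold. Of the 178 Gm symbols past 500 UMIs in each KLF2 library, 77 (43.3%) had 0 UMIs in vector replicate 2, 20 had 1 to 9, 29 had 10 to 99 and 52 had 100 or more. Among all 10548 symbols past that level 123 (1.17%) were at 0, and among the 10370 without a Gm symbol 46 (0.444%). Vector replicate 2 was less deep, and its count of 0 allows up to 0.0658 CPM, against 5.56 CPM for the lowest member in KLF2 replicate 1 and 4.62 CPM in KLF2 replicate 2. That limit, as all intervals here, covers counting error only.

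The rule did not use the readthrough tag. All 62 Gm symbols with a readthrough-only model that passed 500 UMIs were at 0 (100%), against 10 of 105 (9.52%) Gm symbols with another model and 5 of 11 (45.5%) not in GENCODE M21. The same was seen outside the Gm symbols. Of all 72 readthrough-only models past the level, 71 (98.6%) were at 0, among them Gon7, Pyurf, Pagr1b, Nupl1, Rbm12, Iqschfp, Tmsb15l, Tnfsfm13 and AL732309.1. Pakap was the exception, with 2772 UMIs in vector replicate 2. Of 10402 annotated symbols without a readthrough-only model 44 (0.423%) were at 0. By class of such models, the share at 0 was 0.304% for protein-coding genes, 8.82% for lincRNA, 6.94% for antisense genes and 3.23% for processed transcripts, and it was 1.56% for symbols that end in Rik. The tag was looked at after the members were known, and these shares are given as a description.

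All 77 members stood in the gene list of vector replicate 1. So did all 178 Gm symbols past the level (100%), so the listing does not set the members apart from other Gm symbols. Of the 46 other symbols that passed the level with 0 UMIs in vector replicate 2, 45 (97.8%) were listed. In the 3 libraries with a matrix every listed gene had at least 1 UMI. Whether that holds for the list of vector replicate 1, and the members' levels in that mouse, were not measured.

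Listing can be followed for all readthrough-only models, also those too scarce to be members. GENCODE M21 holds 273, of which vector replicate 1 listed 230 (84.2%), KLF2 replicate 1 238 (87.2%) and KLF2 replicate 2 239 (87.5%), and vector replicate 2 listed 1 (0.366%). For the 211 that are no member, whose listing the choice of members did not use, the counts were 168 in vector replicate 1, 176 and 177 in the KLF2 libraries and 1 in vector replicate 2. The gap was far smaller for the 73 genes with both readthrough and ordinary transcripts. Of these, 62 (84.9%) and 55 (75.3%) were listed in vector replicates 1 and 2, and 63 (86.3%) and 62 (84.9%) in KLF2 replicates 1 and 2. Vector replicate 2 stood apart from the other vector library as well as from the KLF2 libraries.

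For other protein-coding genes the listed share was 81.9% in vector replicate 1, 81.8% in vector replicate 2 and 85.4% and 87.5% in the KLF2 libraries. Other antisense genes (76.7%, 60.2%, 81.6% and 86.1%) and other lincRNA genes (44.4%, 38.4%, 53.3% and 60.6%) were listed less often in vector replicate 2 than in the other libraries, with smaller gaps. The reference used for each library is not given in the sources used here, and its part in the gap was not tested.

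**Figure D1:**
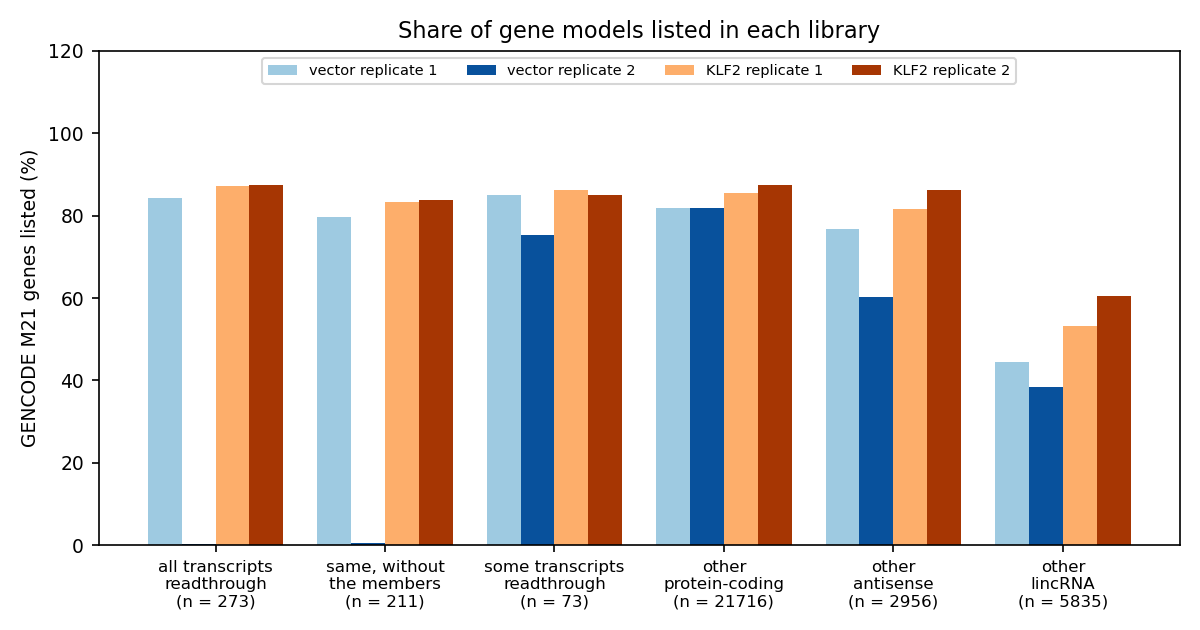
Share of GENCODE M21 genes that each of the 4 libraries listed (y axis, %), by kind of gene model (x axis, number of genes in brackets). The bar of vector replicate 2 is at 0.366% for models with only readthrough transcripts, while the other 3 libraries are between 84.2% and 87.5%.

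The members, which the rule required to be abundant in both KLF2 libraries, are described by level next. Together they held 444334 UMIs in KLF2 replicate 1 and 502919 in KLF2 replicate 2, which is 4659 and 4009 CPM or 0.466% and 0.401% of all UMIs. The readthrough-only members made up 2558 and 2330 CPM of this, the 10 with another model 233 and 156 CPM, and the 5 unmatched symbols 1868 and 1523 CPM. CPM are not divided by gene length, so the order of members below is an order of UMIs and not of transcripts per base.

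Gm49804 alone had 166869 UMIs in KLF2 replicate 1 and 178865 in KLF2 replicate 2, or 1749.6 CPM (95% exact Poisson interval 1741 to 1758) and 1426 CPM (1419 to 1432). That is 37.6% and 35.6% of all member UMIs. The 12 members with the highest mean level held 77.1% and 74.6%, and 9 of these 12 were readthrough-only models. The remaining members were scarce, with a median over all 77 of 14.9 and 16.5 CPM, and 5 members reached 100 CPM in each KLF2 library.

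Gm20388 came second, at 508 CPM in KLF2 replicate 1 and 558 CPM in KLF2 replicate 2. Its model (ENSMUSG00000092329.1, GRCm38 chromosome 8, 119910841 to 124345722, plus strand) joins an exon of Usp10, a deubiquitinase gene, to Galnt2, which starts mucin-type O-glycosylation. It spans 4435 kb and overlaps 90 other genes on its own strand, and whether UMIs from introns were counted is not given in the sources used here.

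Gm21988 (ENSMUSG00000040904.10, chromosome 11, 70235206 to 70239830, minus strand) followed, at 286 and 271 CPM. It joins Rnasek, an endoribonuclease gene, to 0610010K14Rik. Gm42674 (chromosome 3, 90601904 to 90605885, plus strand) stood at 236 and 178 CPM and joins the calcium-binding protein genes S100a3 and S100a4. Gm20521 (chromosome 14, 54883441 to 54898137, plus strand) stood at 177 and 136 CPM and joins Bcl2l2, a survival factor of the BCL2 family, to Pabpn1, the nuclear poly(A)-binding protein. All 3 were higher in KLF2 replicate 1 than in KLF2 replicate 2, by less than 1.5-fold.

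Among the other members of the first 12, Gm42688 (Ccdc142 and the mitochondrial ribosomal protein gene Mrpl53) had 114 and 95.3 CPM. Gm20503 (Dnajc25 and the G protein subunit gene Gng10) had 102 and 58.8 CPM, and Gm20498 (Synj2bp and the cytochrome c oxidase assembly gene Cox16) had 75.01 and 66.6 CPM. Gm20427 joins Slc39a7, a zinc transporter gene, to H2-Ke6 and had 71.4 and 48.03 CPM, while Gm20538 joins Ndufb8 of respiratory complex I to Sec31b and had 65.6 and 40.7 CPM. The 2 without a readthrough model were Gm14164, a processed transcript on chromosome 2, at 147 and 72.8 CPM, and Gm50387 at 60.2 and 40.4 CPM.

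Between the KLF2 libraries 65 of 77 members differed by less than 1.5-fold, among them 55 of the 62 readthrough-only members. The share among all symbols past the threshold was not measured, so this count does not set the members apart. The rule also required a level in both libraries. The median ratio of KLF2 replicate 1 to KLF2 replicate 2 was 1.05, and ratios ran from 0.487 to 3.04. The extremes were members with an ordinary model. Gm15286 stood at 15.4 CPM (14.6 to 16.2) in KLF2 replicate 1 and 5.05 CPM (4.66 to 5.45) in KLF2 replicate 2, and Gm14164 was 2.02-fold higher in KLF2 replicate 1. Gm16136, antisense to Grhl2, a gene of epithelial identity, went the other way, from 9.13 CPM (8.54 to 9.76) to 18.8 CPM (18.0 to 19.5).

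Of the readthrough-only members, Gm43738 (the isoprenoid synthesis gene Fdps and Rusc1) was at 57.9 and 33.05 CPM, a ratio of 1.75. Gm20503 had a ratio of 1.74. Gm49369, which joins the lysosomal protease gene Ctsd to Ifitm10, was higher in KLF2 replicate 2, at 12.1 and 20.4 CPM, as were Gm28177 at 7.51 and 11.8 CPM and the unmatched Gm49909 at 14.9 and 22.5 CPM. The counting intervals of these pairs did not overlap, but with 1 mouse on each side of such a ratio the spread between mice is not known.

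**Figure D2:**
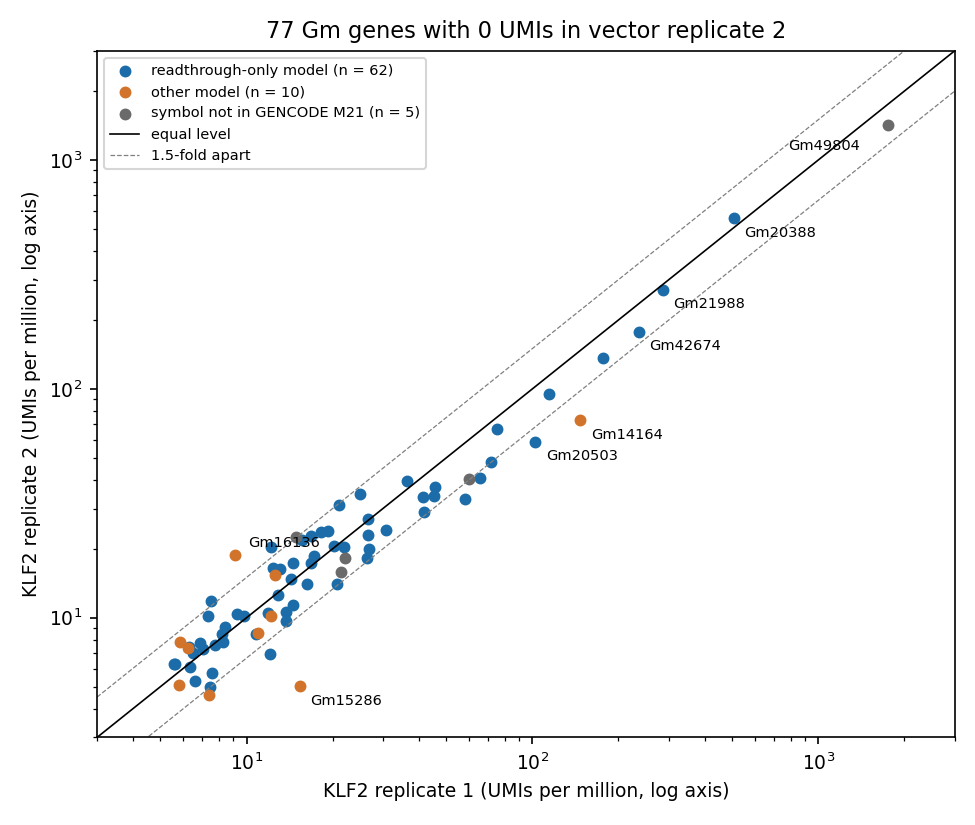
Level of each of the 77 members in KLF2 replicate 1 (x axis) and KLF2 replicate 2 (y axis), in CPM on log axes, coloured by kind of gene model. Points lie along the line of equal level, with 65 of 77 inside the dashed lines that mark 1.5-fold.

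Cells were grouped into 7 classes from clusters made without any Gm symbol and named by marker genes. These were a tumour/parenchymal class (a hepatocyte-lineage-like cluster found in vector replicate 2, a cholangiocyte-like cluster, and unnamed clusters low in the leukocyte gene Ptprc), and endothelial-like, mesenchymal-like, myeloid-like, neutrophil-like, T/NK-like and B/plasma-like cells. In vector replicate 2, 1788 of 8403 kept cells (21.3%) lay in unnamed clusters with Ptprc and in no class, against 0 in the KLF2 libraries. One unnamed cluster in the tumour/parenchymal class, with 731 and 402 cells of KLF2 replicates 1 and 2, was led by Ibsp and had Col1a1, Col1a2 and Sparc, matrix genes of mesenchymal cells, among its 10 leading genes. The KLF2 libraries held 5184 and 8382 tumour/parenchymal cells and between 56 and 1657 cells of each other class. The KLF2 tumour/parenchymal class had little Alb (4.38 and 10.1 CPM), and most of its clusters were unnamed. Because the clusters were defined in these same cells, levels by class are described without a test.

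UMIs of the members were counted in all cell classes. Their summed level lay between 3509 CPM in endothelial-like cells and 4986 CPM in T/NK-like cells of KLF2 replicate 1, and between 3134 and 4125 CPM in KLF2 replicate 2, where the tumour/parenchymal class was highest. In 60 of 77 members every class of both KLF2 libraries held at least 1 UMI, near the share among all symbols past the threshold (80.1%). Free RNA can give such UMIs. The epithelial gene Krt19 was at 109 and 188 CPM in the tumour/parenchymal class, at 14.8 and 51.0 CPM in T/NK-like cells, and at 46.2 and 179 CPM in neutrophil-like cells of KLF2 replicates 1 and 2. The part of free RNA in the members' levels by class was not tested. In vector replicate 2 all 7 classes had 0 member UMIs, which the rule fixed in advance. Its T/NK-like cells alone held 12167776 UMIs, so that a count of 0 allows up to 0.247 CPM there.

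Gm49804 was uneven between classes. It stood at 2421 CPM in B/plasma-like and 2344 CPM in T/NK-like cells of KLF2 replicate 1 and at 776 CPM in neutrophil-like and 836 CPM in endothelial-like cells. In KLF2 replicate 2 the T/NK-like and B/plasma-like cells were again highest, at 1719.9 and 1713 CPM, and endothelial-like cells lowest, at 698 CPM. Readthrough-only members summed to between 2149 and 2816 CPM over the classes of KLF2 replicate 1 and between 1767 and 2368 CPM in KLF2 replicate 2, with B/plasma-like cells lowest in both.

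The 2 most abundant readthrough members varied by less than 2-fold between the classes of a library. Gm20388 ranged from 368 to 583 CPM over the 14 classes and libraries, and Gm21988 from 172 to 343 CPM, highest in endothelial-like cells of both libraries. Clusters within the tumour/parenchymal class differed more. Gm20388 had 1404 and 1169 CPM in the cluster led by Cdan1 and Cdh13 and 440 and 433 CPM in that led by Ibsp. Gm21988 had 66.5 and 97.4 CPM in the cluster led by Malat1 and 347 and 356 CPM in that led by Car3 and Mt3. Other members varied more between classes. Gm42688 ranged 4.19-fold and 2.98-fold over the classes of KLF2 replicates 1 and 2, Gm20427 3.27-fold and 3.49-fold, and Gm20503 2.66-fold and 2.42-fold. Gm42674 (S100a3 and S100a4) was at 14.8 and 38.5 CPM in endothelial-like cells and 68 and 40.1 CPM in B/plasma-like cells. The tumour/parenchymal class had 238 and 183 CPM, T/NK-like cells 263 and 180 CPM and myeloid-like cells 250 and 171 CPM. Neutrophil-like cells had 306 and 75.7 CPM and mesenchymal-like cells 244 and 104 CPM. Within the tumour/parenchymal class it had 15.5 and 16.6 CPM in a cluster led by Ldhb and S100g. In the cluster led by Car3 and Mt3 it had 363 and 302 CPM.

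The same class was highest in both KLF2 libraries for 41 of the 77 members, 31 of them readthrough-only models. The share among all symbols past the threshold was 53.5%, so the members' count was near that background. Of these 41, 10 were highest in tumour/parenchymal cells, 7 each in endothelial-like and mesenchymal-like cells, 6 in B/plasma-like, 4 each in neutrophil-like and T/NK-like and 3 in myeloid-like cells. Some of these calls rest on few UMIs, such as Gm20604 in neutrophil-like (3 and 5 UMIs) and Gm42715 in B/plasma-like cells (5 and 4 UMIs). Others rest on small folds, such as Gm38551 in myeloid-like cells (1.33-fold and 1.05-fold above all other cells). In tumour/parenchymal cells Gm42688 had 123 and 103 CPM against 49.5 and 51.4 CPM in all other cells, and Gm14164 had 158 and 77.9 CPM against 67.2 and 43.7 CPM. Gm16136 had 10.1 and 20.8 CPM there against 1.53 and 6.76 CPM elsewhere.

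In all, 4 members were at least 4-fold higher in 1 class than in all other cells of each KLF2 library, and all 4 were among the 62 readthrough-only models. Of all 10548 symbols past the threshold 913 (8.66%) met the same rule, so such members were not more frequent than among all symbols. These include genes that the clustering used. Gm45837 was the most uneven. It stood at 272 CPM (240 to 308) and 198 CPM (176 to 223) in endothelial-like cells of KLF2 replicates 1 and 2, which is 28.7-fold and 41.8-fold above all other cells. Tumour/parenchymal cells had 6.20 and 3.36 CPM. It joins Arap1, a regulator of small GTPases, to Pde2a, a cyclic nucleotide phosphodiesterase that endothelium expresses.

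Gm49339, over the leukocyte receptor genes Lilr4b and Lilrb4a, had 378 CPM (304 to 464) and 193 CPM (154 to 239) in neutrophil-like cells, and 169 and 135 CPM in myeloid-like cells. T/NK-like cells had 46.2 and 41.5 CPM, and tumour/parenchymal cells 1.33 and 2.28 CPM. It was low in endothelial-like cells too, at 1.06 and 4.21 CPM. The fold over all other cells was 27.6 and 11.5 for neutrophil-like cells.

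Gm28177 had 42.5 CPM (27.0 to 63.8) and 68.6 CPM (56.3 to 82.8) in T/NK-like cells, 5.86-fold and 6.16-fold above all other cells. Endothelial-like cells came close in KLF2 replicate 1, with 38.1 CPM, which lies inside that interval. Gm43552, which joins Smim14 to Ugdh, rested on 11 and 13 UMIs in B/plasma-like cells (24.9 and 30.7 CPM, 4.01-fold and 4.16-fold). Gm49369 had 54.2 and 48.9 CPM in myeloid-like cells, and its 2.86-fold excess in KLF2 replicate 2 missed the 4-fold limit.

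**Figure D3:**
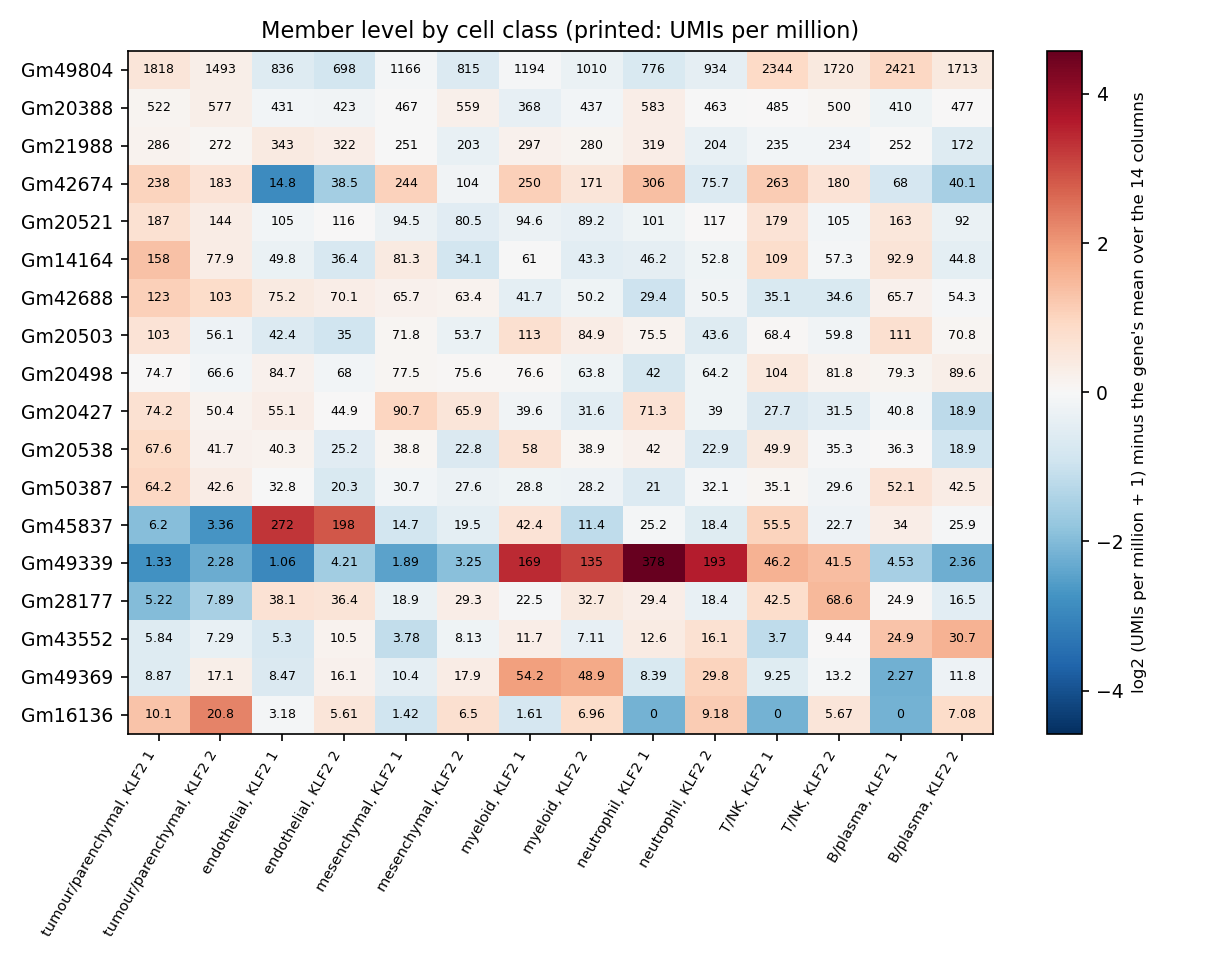
Level of 18 members (rows) in the 7 cell classes of each KLF2 library (columns). Printed values are CPM and colours give log2 (CPM + 1) minus the row's mean. Gm45837 is highest in endothelial-like cells (272 and 198) and Gm49339 in neutrophil-like and myeloid-like cells, while Gm20388 and Gm21988 vary little between these classes.

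Within the tumour/parenchymal class, 8 clusters held at least 50 cells in each KLF2 library. The readthrough-only sum ran from 1658 and 1816 CPM in a cluster led by Camk1d, Gphn and Hbb-bs to 3905 CPM in KLF2 replicate 1, in a cluster led by Cdan1 and Cdh13 (3402 CPM in KLF2 replicate 2), and to 3425 CPM in KLF2 replicate 2, in a cluster led by Cntn4 and Lsamp (3018 CPM in KLF2 replicate 1). The Camk1d and Cdan1 clusters also differed in depth, with medians of 5303 and 1878 UMIs a cell in the former and 5626.5 and 4186 in the latter. Malat1, a nuclear RNA, was at 4937 and 5487 CPM in the Camk1d cluster, at 24077.5 and 21550 CPM in the Cdan1 cluster and at 13381 and 12387 CPM in the Cntn4 cluster. The 5 unmatched symbols, mostly Gm49804, had another order. They were at 2300.2 and 1956 CPM in the cluster led by Car3 and Mt3, where Malat1 was at 1285 and 1180.03 CPM. In the cluster led by Malat1 (35158 and 27824 CPM) they were at 564 and 594 CPM, and in the Cdan1 cluster at 605 and 714 CPM. The readthrough-only sum was 2207 and 2120 CPM in the cluster led by Malat1. It was 2802 and 2452 CPM in the Car3 and Mt3 cluster, so over the clusters it did not follow the order of Malat1. The part of nuclear RNA in these levels was not tested.

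The single genes that the readthrough members join are no members, and their levels were set beside the overlap. Of 112 such genes that were listed (the protocadherins of Gm42416 left out), 22 had at least 90% of their last 500 exonic bases inside the exons of the member (covered), 67 had at most 10% (uncovered) and 23 lay between. The 3′ end was taken because droplet libraries capture RNA by its poly(A) tail. This division was made after the members' levels were known.

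Single genes with a covered 3′ end were mostly far lower in the KLF2 libraries. At 10 CPM or more in vector replicate 2, 15 covered genes had a median log2 ratio (mean of the KLF2 libraries over vector replicate 2) of -3.84, and in 12 of 15 both KLF2 libraries were lower by 2-fold or more. Over all 7160 genes at that level the median was 0.31 and 1145 (16%) were as much lower. At least 8-fold lower were 8 of the 15, against 378 genes (5.28%). The 15 partly covered genes had a median of -0.73 with 7 lower by 2-fold, and the 49 uncovered genes a median of -0.02 with 7 lower.

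**Figure D4:**
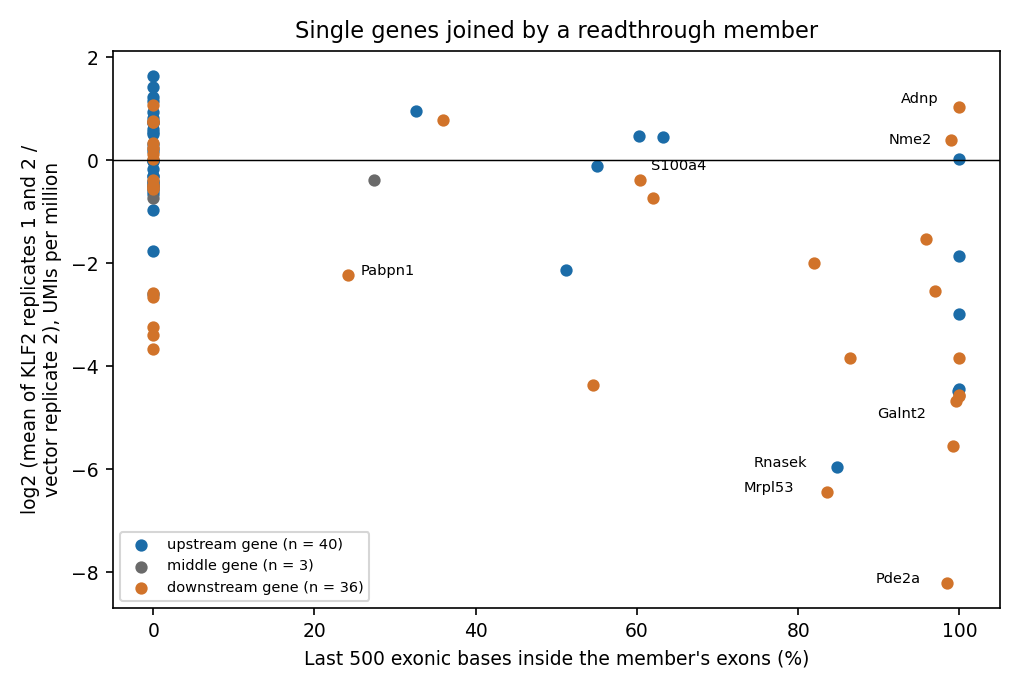
Each point is a single gene joined by a readthrough member, at 10 CPM or more in vector replicate 2. The x axis gives the share of its last 500 exonic bases inside the member's exons (%) and the y axis the log2 ratio of the KLF2 mean to vector replicate 2. Genes with a covered end have a median of -3.84 and those with an uncovered end of -0.02, with Adnp, Nme2 and Srcap at or above 0 among the covered ones.

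Single loci are given next, first one with both genes partly covered (84.8% for Rnasek and 54.6% for 0610010K14Rik). Rnasek was at 110 CPM in vector replicate 2 and at 1.80 and 1.75 CPM in KLF2 replicates 1 and 2, and 0610010K14Rik at 55.6, 3.06 and 2.38 CPM. The readthrough member over both, Gm21988, had 0, 286 and 271 CPM. Added up, the locus had 166, 290 and 276 CPM, while both single genes were lower in the KLF2 libraries. The rule set each member to 0 in vector replicate 2. Adding it can therefore raise only the KLF2 totals, here and in the locus sums below.

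Slc39a7, with a covered end, stood at 49.7, 2.41 and 2.18 CPM in vector replicate 2 and KLF2 replicates 1 and 2, and with H2-Ke6 and Gm20427 added the locus had 105, 106 and 84.2 CPM. Pabpn1, covered at 24.2% of its last 500 bases, stood at 170, 39.2 and 33.2 CPM, and its locus with Bcl2l2 and Gm20521 at 175, 229 and 182 CPM. Cox16, partly covered at 82%, stood at 45.0, 10.5 and 12.1 CPM while Synj2bp upstream, with an uncovered end, was at 29.4, 31.0 and 28.2 CPM. In each of these pairs the gene with more of its 3′ end covered had the lower ratio of KLF2 level to vector replicate 2. The pairs are examples and not all loci of the named members. Over all partly covered genes, 7 of 15 were lower by 2-fold or more in both KLF2 libraries.

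Mrpl53, partly covered at 83.6%, was at 27.2 CPM in vector replicate 2 and at 0.367 and 0.263 CPM in the KLF2 libraries, where Gm42688 had 114 and 95.3 CPM. Galnt2, with a covered end, was at 29.0, 0.986 and 1.29 CPM, and Usp10 upstream at 26.2, 43.8 and 56.1 CPM. With Gm20388 added, Usp10 and Galnt2 came to 55.2, 552 and 615 CPM. Tmem265, covered by Gm42715, had 314 UMIs in vector replicate 2 and none in either KLF2 library.

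**Figure D5:**
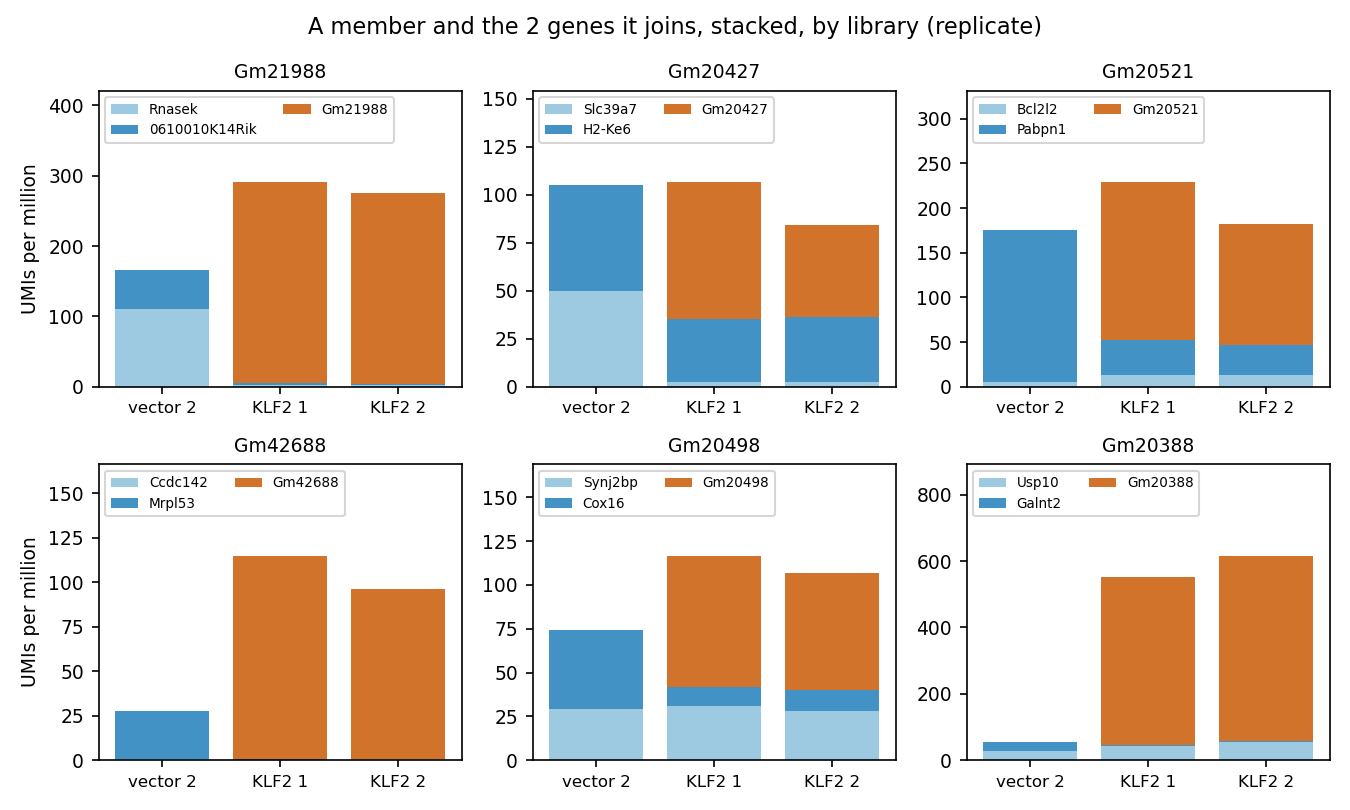
CPM (y axis) of 6 readthrough members (orange) and the 2 single genes that each joins (blue), stacked, in vector replicate 2 and KLF2 replicates 1 and 2. At Gm21988 the single genes sum to 166 in vector replicate 2, and the member makes up 286 and 271 of the totals of 290 and 276 in the KLF2 libraries.

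Not every covered gene was lower. Nme2, a nucleoside diphosphate kinase gene under Gm20390, was at 504, 831 and 496 CPM in vector replicate 2 and KLF2 replicates 1 and 2. Adnp, under Gm20716, was at 22.1, 44.0 and 46.9 CPM, and Srcap, under Gm42715, at 27.2, 26.6 and 28.8 CPM. Of the 49 uncovered genes, the 7 that were lower by 2-fold or more in both KLF2 libraries included Dbndd2, Rbm4, Cmtr1, Itga1 and Lats2, which were named after their values were seen. Over the 15 loci with a covered gene, the median log2 ratio of member and single genes added was 0.28. At least 2-fold lower were 2 loci. Each sum holds a member, which adds to the KLF2 libraries only.

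Sums over all barcodes mix cell classes, and the libraries hold these in different shares, so the same values were taken within classes. The clusters that make up a class differ between the libraries. T/NK-like cells came from a vector cluster (2951 cells of vector replicate 2) and a KLF2 cluster (87 and 379 cells), and endothelial-like cells from a vector cluster of 1684 cells and a KLF2 cluster of 93 and 238 cells. The myeloid-like and mesenchymal-like cells were likewise in separate clusters.

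In endothelial-like cells Pde2a had 210 CPM in vector replicate 2 and 5.30 and 4.21 CPM in the KLF2 libraries. Gm45837 had 0, 272 and 198 CPM in the same cells, and Arap1 23.6, 10.6 and 18.2 CPM. The locus total was 234, 288 and 221 CPM. Over all barcodes that total had been 104, 28.0 and 26.5 CPM, a difference not seen within the class. In both sums the member adds to the KLF2 libraries only.

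Rnasek followed the same pattern in 3 classes. It was at 104, 5.55 and 6.30 CPM in T/NK-like cells of vector replicate 2 and KLF2 replicates 1 and 2, at 154, 1.02 and 2.29 CPM in myeloid-like cells, and at 172, 1.06 and 0 CPM in endothelial-like cells. In myeloid-like cells Lilrb4a was at 149, 24.3 and 30.5 CPM and Lilr4b at 79.1, 264 and 209 CPM, with 169 and 135 CPM of Gm49339 in the KLF2 libraries.

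Counts within classes were small. At 50 CPM or more in vector replicate 2, 2 of 3 covered genes and 6 of 9 partly covered genes were lower by 2-fold or more in both KLF2 libraries in T/NK-like cells, against 115 of all 1949 genes (5.9%). In endothelial-like cells the counts were 2 of 3 and 4 of 7, against 113 of 2117 (5.34%), and in myeloid-like cells 2 of 3 and 6 of 9, against 162 of 1839 (8.81%). In mesenchymal-like cells they were 3 of 4 and 2 of 7, against 158 of 1840 (8.59%), and in B/plasma-like cells 0 of 1 and 4 of 11, against 223 of 1897 (11.8%). Some uncovered genes were lower too, but in endothelial-like and myeloid-like cells these were too few to set them apart from all genes. In myeloid-like cells 2 uncovered genes were higher by 2-fold or more in both KLF2 libraries, and in the other classes 0. The counts of lower uncovered genes were 3 of 17 in T/NK-like, 1 of 15 in endothelial-like, 2 of 16 in myeloid-like, 3 of 16 in mesenchymal-like and 4 of 20 in B/plasma-like cells. The median log2 ratios of all uncovered genes were -0.38, -0.36, -0.42, -0.30 and -0.46 in that order, unlike the -0.02 over all barcodes.

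With member and single genes added, the loci of covered genes had median log2 ratios of 0.04 in T/NK-like, -0.22 in endothelial-like, 0.20 in myeloid-like, -0.43 in mesenchymal-like and 0.21 in B/plasma-like cells. For loci of partly covered genes the medians in the same order were -0.07, -0.04, 0.17, 0.34 and 0.07. For loci of uncovered genes they were -0.02, 0.01, -0.30, -0.05 and -0.12. The medians for covered genes rest on 1 to 4 loci in a class, and adding a member raises only the KLF2 side.

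The threshold of 500 UMIs had no gap around it. The members nearest to it were Gm20518 (530 UMIs in KLF2 replicate 1 and 785 in KLF2 replicate 2), Gm29609 (537 and 784) and Gm35769 (555 and 641). Gm49325 (499 and 639), Gm15738 (498 and 793) and Gm26965 (497 and 644) lay just below with 0 UMIs in vector replicate 2. Gm11867, Gm15218 and Gm26642 passed the threshold and had 1 UMI each in vector replicate 2, and none of these 3 is a readthrough-only model.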

How the data were processed

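Per the file headers the matrices hold UMI counts per gene and barcode written by PISA 1.0; the build was GRCm38 per the submitters' processing notes. No source used here names the aligner, annotation, strand setting or cell calling. These deposited counts were not normalised. The members and lists were chosen with earlier results of these data known.

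Members were found from sums over all barcodes, and a symbol missing from a list was taken as 0. Gene models, spans and transcripts came from GENCODE M21, matched by symbol (72 of 77). Barcodes under 300 genes or over 25% mitochondrial UMIs were dropped, leaving 8403, 6209 and 11103. Doublets were not removed. After scaling each cell to 10000 UMIs and taking logs, 2000 variable genes without Gm symbols, 30 components and 15 neighbours were clustered with Leiden at resolution 1.0 (scanpy 1.11.5, leidenalg 0.10.2). Clusters were named when a marker list rose by 1.0 on the log2 scale, led the next by 0.5 and had 3 detected markers with 1 or more among the 10 leading genes. Unnamed clusters under 100 CPM of Ptprc joined the tumour/parenchymal class. CPM are UMIs per 1000000 of the library or class. Intervals are 95% exact Poisson. A count of 0 allows 3 counts, and ratios set levels below 3 UMIs to 3 UMIs. Named members were the 12 highest, those 4-fold higher in 1 class, the 4 largest ratios each way between the KLF2 libraries and those nearest the threshold. The member rule and the log2 ratios were tested on simulated counts, and the clustering, class naming and overlaps were not. Some genes are not reported here.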

Additional observations from a re-analysis of the deposited data

How the results depend on the processing

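The number of members was 199 with a threshold of 100 UMIs (198 listed in vector replicate 1, 121 readthrough-only) and 52 with 1000 UMIs. Leaving out each KLF2 replicate in turn gave 80 to 105 members. Counting Gm20498 and Gm20604 as present through the aliases Synj2bp and Moap1, which vector replicate 2 listed, left 75. Without Gm42418, Gm26917 and mitochondrial genes in the denominator the summed level was 5346 and 4821 CPM in KLF2 replicates 1 and 2. As a mean of both libraries it was then 5183 CPM in tumour/parenchymal, 4287 in endothelial-like, 4208 in mesenchymal-like, 4300.1 in myeloid-like, 4212 in neutrophil-like, 5335 in T/NK-like and 5073 in B/plasma-like cells. With the full denominator, leaving out Gm49804 moved the reported means of 4453, 3322, 3469, 3501, 3517, 4493 and 4243 CPM, in the same order of classes, to 2797, 2555, 2478, 2399, 2662, 2461 and 2177 CPM, and the T/NK-like and B/plasma-like cells were no longer among the highest. Mesenchymal-like cells moved to 4210.4 CPM with at most 10% mitochondrial UMIs and to 4218 CPM at resolution 0.5. The same highest class was found for 38 to 41 members at the other resolutions and with 20 cells a class. For covered single genes the median log2 ratio was -2.76 with a cover of at least 50% and -3.06 with no minimum level (both chosen after seeing the data), and -4.37 to -3.45 with either KLF2 replicate left out. For uncovered genes it was 0.12 with no minimum level and -0.13 (without KLF2 replicate 1) and -0.055 (without KLF2 replicate 2). No paired analysis was possible because only replicate number 2 had a matrix in both groups. Low class counts (11 to 13 UMIs for Gm43552) limit what depth can show.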
